A study of Mus musculus with 6 samples.

Results

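The genes studied here encode the steps that take glucose into the cell, break it down to pyruvate, export it as lactate or pass it to the mitochondrion. They were chosen by name: 32 genes were listed, and a gene was measured where at least 1 probe set of the array was annotated with its symbol alone. This gave 28 genes of the 19938 genes measured in that way. Gapdh was listed on 25 probe sets, always with other genes, and Gpi1, Eno1 and Mpc2 were listed on 0 probe sets, so these 4 were not analysed here. Of the 28 genes, 25 had a mean signal above that of the median gene.

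In glycolysis, glucose enters through transporters such as the Slc2a1 product, is trapped by hexokinases and committed by phosphofructokinase, and is then split and oxidised to pyruvate in the cytosol. Pyruvate is reduced to lactate by lactate dehydrogenase and leaves the cell, or it enters the mitochondrion through a carrier and is turned into acetyl-CoA by the pyruvate dehydrogenase complex, which the Pdk kinases switch off. Mouse embryonic stem (ES) cells are known for high glycolytic activity, and many of these genes are known targets of the hypoxia-inducible factors, which switch on genes when oxygen is low.

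RNA of 3 Satb1-/- and 3 WT mouse ES cell samples was labelled with biotin and read on 1 array each. Satb1 encodes a DNA-binding organiser of chromatin, and the comparison asks which genes differ in ES cells that lack it. The Satb1-/- arrays are numbered as clones 1-1, 1-2 and 2-1, with the meaning of the first number not given, and the WT arrays, labelled as control, are numbered 1, 2 and 3. The cells of both groups carried a HygroTK selection marker in the Oct4 locus, and both were kept with LIF and 15% serum on irradiated feeder cells, with hygromycin for 3 days, before most feeders were settled out and the upper 50% of the suspension was taken. The labels do not say whether each array stands for its own culture; the p-values therefore rest on array-to-array spread that may be technical.

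All values are log2 expression values, on which 1 unit is a doubling of signal, and every difference is Satb1-/- minus WT. Satb1 read 4.38, 4.47 and 4.57 in the Satb1-/- arrays, against 5.12, 4.99 and 5.31 in the WT arrays (difference -0.67, limma adjusted p = 0.0220). The position of its probes relative to the deletion is not known here, so this value is a limited check of the labels. The 10 ES cell markers averaged 9.60 to 9.63 in Satb1-/- arrays and 9.31 to 9.56 in WT arrays, with 5 of the 10 higher and 5 lower in mean. Nanog (difference 1.09) and Esrrb (0.56) rose, and Sox2 (0.30) was higher without overlap but did not pass the threshold. Pou5f1 (-0.39), Dppa4 (-0.39) and Tdgf1 (-0.06) were lower without overlap but did not pass it either. Nanog lies next to Slc2a3 in the part of chromosome 6 around Tpi1 where many genes rose, as given below. The 15 feeder fibroblast markers averaged 6.75 to 7.05 in Satb1-/- arrays and 6.49 to 6.85 in WT arrays. In RNA from bulk cells, a change in the share of a cell type and a change in RNA per cell cannot be told apart.

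Tpi1, which encodes triose phosphate isomerase, was the 1 gene of the 28 that rose in Satb1-/- cells, and 0 of the 28 fell (limma, p adjusted by Benjamini-Hochberg across the whole table, threshold 0.05). Over all genes, 1.40% passed this threshold, 0.923% higher and 0.476% lower. At an unadjusted p under 0.05 there were 4 of the 28, all higher (Tpi1, Mpc1, Hk2 and Pfkp). Over all genes there were 2089 of 19938 in either direction. Genes of like signal were taken as the 5383 genes with a signal at or above the lower quartile of the 28. Of these, 960 had an unadjusted p under 0.05 in either direction, and 128 passed the threshold higher and 56 lower. The median difference of the 28 genes was 0.08, against -0.0044 over all genes and 0.03 over the 5383 genes of like signal. The groups did not overlap for 5 genes higher and 2 lower of the 28, against 8.18% higher and 6.97% lower over all genes. Among the 5383 genes of like signal they did not overlap for 718 higher and 453 lower. Hk1 is among the 2 lower through its brighter probe set only, and the groups of its other probe set overlapped. The array values and the test are given below by step of the pathway.

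**Figure D1:**
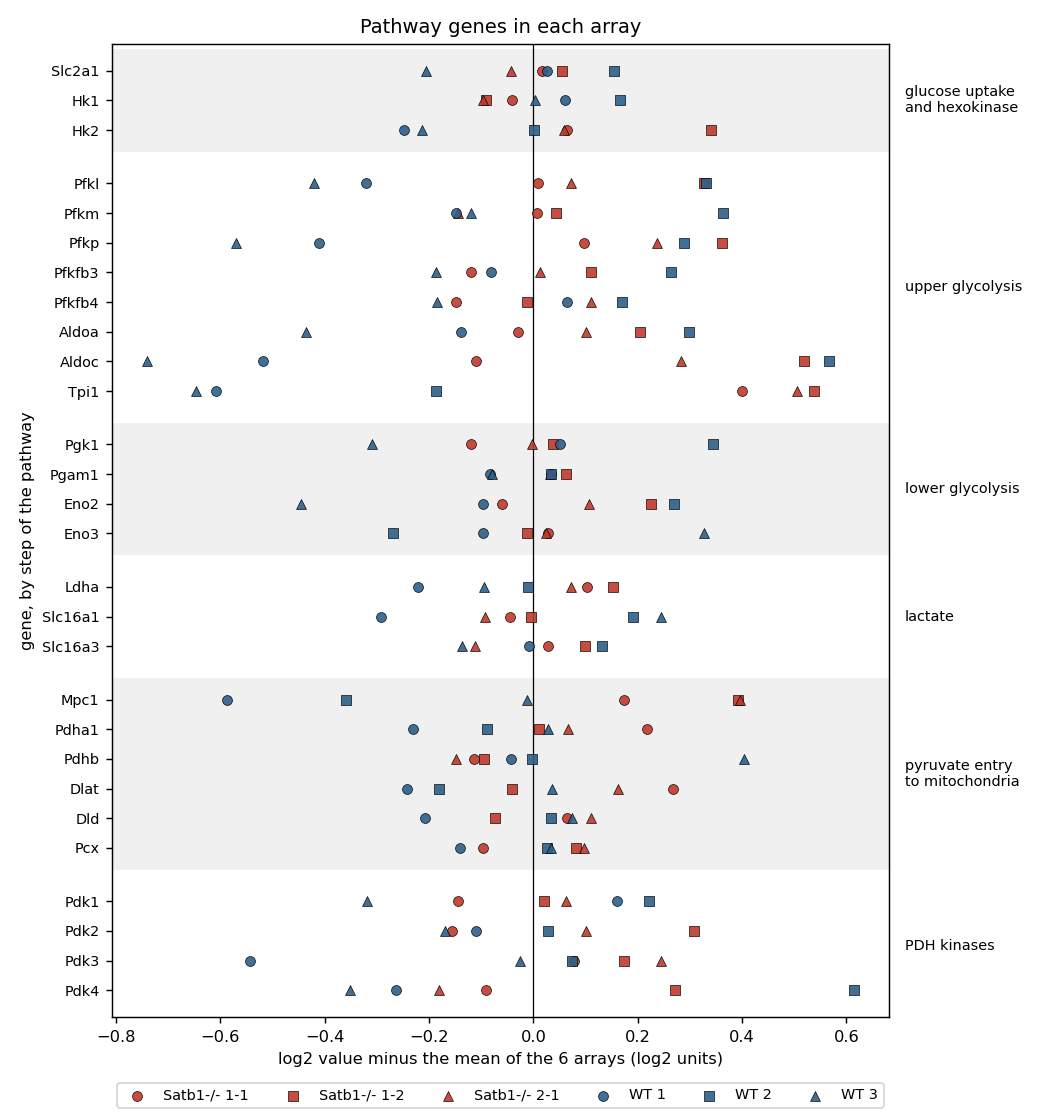
Log2 value of each of the 28 genes in each array, less the mean of the 6 arrays for that gene (x axis, log2 units). Genes are grouped by step of the pathway, red points are Satb1-/- arrays and blue points WT arrays, and the shape gives the array. WT array 2 (blue squares) lies to the right of WT arrays 1 and 3 for 20 of the 28 genes, and the groups of Tpi1 do not overlap.

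Glucose uptake and phosphorylation held 0 changed genes of 3. Slc2a1, the main glucose transporter gene of many dividing cells, read 11.27, 11.31 and 11.21 in Satb1-/- arrays, against 11.28, 11.41 and 11.05 in WT arrays (difference 0.02, SE 0.12, limma adjusted p = 0.987). The Satb1-/- values lay inside the WT range. Hk2, the inducible hexokinase gene, read 9.46, 9.73 and 9.45 in Satb1-/- arrays, against 9.14, 9.39 and 9.18 in WT arrays (difference 0.31, limma adjusted p = 0.380). Its groups did not overlap, but the gap between 9.39 and 9.45 was smaller than the spread within either group.

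Hk1, the widely expressed hexokinase gene, has 2 probe sets that differed in sign. The brighter one averaged 11.54 ± 0.03 in Satb1-/- arrays and 11.70 ± 0.08 in WT arrays (SD, n = 3 each; difference -0.15, limma adjusted p = 0.705). It is annotated with 1 sequence record, which 17 other probe sets also list, 16 of them beside the ribosomal protein gene Rpl17. The other probe set of Hk1 averaged 7.68 in Satb1-/- arrays and 7.43 in WT arrays (difference 0.25, limma adjusted p = 0.688). Which of them follows Hk1 transcripts was not tested, and neither passed the threshold.

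Upper glycolysis, from fructose phosphate to triose phosphates, held the 1 changed gene, among 8 measured, and its median difference was 0.23. Tpi1 read 11.19, 11.33 and 11.30 in Satb1-/- arrays, against 10.18, 10.60 and 10.14 in WT arrays. Every Satb1-/- value lay above every WT value. The difference was 0.96 (SE 0.14), a 1.95-fold higher signal, with a limma adjusted p of 0.00621. Without Satb1-/- array 1-2 it was 0.93 (limma adjusted p = 0.0507) and without array 2-1 it was 0.95 (limma adjusted p = 0.0512), so the call was lost in both cases while its size stayed.

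The other upper glycolytic genes overlapped between the groups. Pfkp, which encodes the platelet-type phosphofructokinase, read 9.84, 10.10 and 9.98 in Satb1-/- arrays, against 9.33, 10.03 and 9.17 in WT arrays (difference 0.46, SE 0.20, limma adjusted p = 0.428). WT array 2 stood with the Satb1-/- arrays and the other two WT arrays below them. Without WT array 2 the difference was 0.72 and passed the threshold (limma adjusted p = 0.0335), but without WT array 3 it was 0.29 and with array weights 0.21 (limma adjusted p = 0.469 and 0.656). Pfkl, the liver-type form, differed by 0.27 (limma adjusted p = 0.721; 0.51 without WT array 2 and 0.13 without WT array 3), and Pfkm, the muscle-type form, by -0.06 (limma adjusted p = 0.956).

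Aldoc, which encodes aldolase C, had the widest WT spread of the 28 genes. It read 7.76, 8.39 and 8.15 in Satb1-/- arrays, against 7.35, 8.43 and 7.13 in WT arrays (difference 0.46, SE 0.29, limma adjusted p = 0.690). WT array 2 was the highest of all 6 arrays and WT array 3 the lowest. The difference was 0.86 without WT array 2 (limma adjusted p = 0.0561), 0.21 without WT array 3 and 0.07 with array weights. Aldoa, the major aldolase gene, read 11.39, 11.63 and 11.53 in Satb1-/- arrays, against 11.28, 11.72 and 10.99 in WT arrays (difference 0.18, limma adjusted p = 0.832). Here too WT arrays 2 and 3 were the extremes of the 6, and the difference was 0.38 without WT array 2 and 0.0124 without WT array 3. Pfkfb3 and Pfkfb4, whose products make and remove the phosphofructokinase activator fructose 2,6-bisphosphate, differed by 0.0024 and -0.03.

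Lower glycolysis, from glyceraldehyde phosphate to phosphoenolpyruvate, held 0 changed genes of 4 measured, and its median difference was 0.06. Pgk1, which encodes phosphoglycerate kinase, read 11.18, 11.34 and 11.30 in Satb1-/- arrays, against 11.35, 11.64 and 10.99 in WT arrays (difference -0.06, SE 0.15, limma adjusted p = 0.962). The 3 Satb1-/- values lay within the WT range. Pgam1, the phosphoglycerate mutase gene, varied least among the 28: 9.81, 9.83 and 9.80 in Satb1-/- arrays, against 9.69, 9.81 and 9.69 in WT arrays (difference 0.09, limma adjusted p = 0.882). Each of these genes had 3 probe sets, of which 2 held the same values, and the third differed in the same direction (-0.04 for Pgk1 and 0.05 for Pgam1).

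The enolase genes measured were Eno2, the neuronal form, whose signal was below that of the median gene, and Eno3, the muscle form. Eno2 read 4.88, 5.17 and 5.05 in Satb1-/- arrays, against 4.85, 5.21 and 4.50 in WT arrays (difference 0.18, limma adjusted p = 0.836). It was 0.36 without WT array 2 and 0.0039 without WT array 3. Eno3 read 6.35, 6.31 and 6.35 in Satb1-/- arrays, against 6.23, 6.06 and 6.65 in WT arrays (difference 0.03, limma adjusted p = 0.983). The order of the WT arrays was turned round between these genes: array 2 was the highest for Eno2 and the lowest for Eno3.

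The lactate step held 0 changed genes of 3. Ldha, which encodes the lactate dehydrogenase A subunit, read 11.48, 11.53 and 11.45 in Satb1-/- arrays, against 11.16, 11.37 and 11.28 in WT arrays (difference 0.22, SE 0.10, limma adjusted p = 0.520). Its groups did not overlap. The lactate and pyruvate transporter genes Slc16a1 and Slc16a3 differed by -0.10 and 0.01 (limma adjusted p = 0.922 and 0.994), with the Satb1-/- values inside the WT range in both.

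Entry of pyruvate into the mitochondrion held 0 changed genes of 6, but also the gene nearest to the threshold. Mpc1, a subunit of the mitochondrial pyruvate carrier, read 5.06, 5.28 and 5.28 in Satb1-/- arrays, against 4.30, 4.53 and 4.88 in WT arrays. All Satb1-/- values lay above all WT values, at a low signal. The difference was 0.64 (SE 0.15, limma adjusted p = 0.0732), and it was 0.79 and past the threshold without WT array 3 (limma adjusted p = 0.00687). Without WT array 1 it was 0.51 (limma adjusted p = 0.176), without Satb1-/- array 2-1 it was 0.60 (limma adjusted p = 0.324), and with arrays 1-1 and 1-2 as 1 sample it was 0.66 (limma adjusted p = 0.216).

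The subunit genes of the pyruvate dehydrogenase complex differed in both directions, none past the threshold. Pdhb, the E1 beta subunit, read 8.56, 8.58 and 8.52 in Satb1-/- arrays, against 8.63, 8.67 and 9.08 in WT arrays (difference -0.24, limma adjusted p = 0.615). Its groups did not overlap, with WT array 3 far above the other arrays, and the difference without that array was -0.0958. Pdha1, the E1 alpha subunit, differed by 0.20 and Dlat, the E2 subunit, by 0.26 (limma adjusted p = 0.644 and 0.514). Dld, the E3 subunit, and Pcx, which encodes pyruvate carboxylase, differed by 0.07 and 0.05.

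None of the 4 pyruvate dehydrogenase kinase genes passed the threshold. Pdk1, a known hypoxia-induced form, read 8.38, 8.55 and 8.59 in Satb1-/- arrays, against 8.68, 8.75 and 8.20 in WT arrays (difference -0.04, limma adjusted p = 0.974). Pdk3 read 7.63, 7.73 and 7.80 in Satb1-/- arrays, against 7.01, 7.63 and 7.53 in WT arrays (difference 0.33, limma adjusted p = 0.509), with the lowest Satb1-/- and the highest WT value both at 7.63. Its difference was 0.14 without WT array 1. Pdk4, a form induced by fasting in muscle and liver, read 5.47, 5.83 and 5.38 in Satb1-/- arrays, against 5.30, 6.17 and 5.21 in WT arrays. Its group means were alike (difference -0.0001, SE 0.23), while its WT values spanned 0.97 units. Pdk2 differed by 0.17 (limma adjusted p = 0.786).

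**Figure D2:**
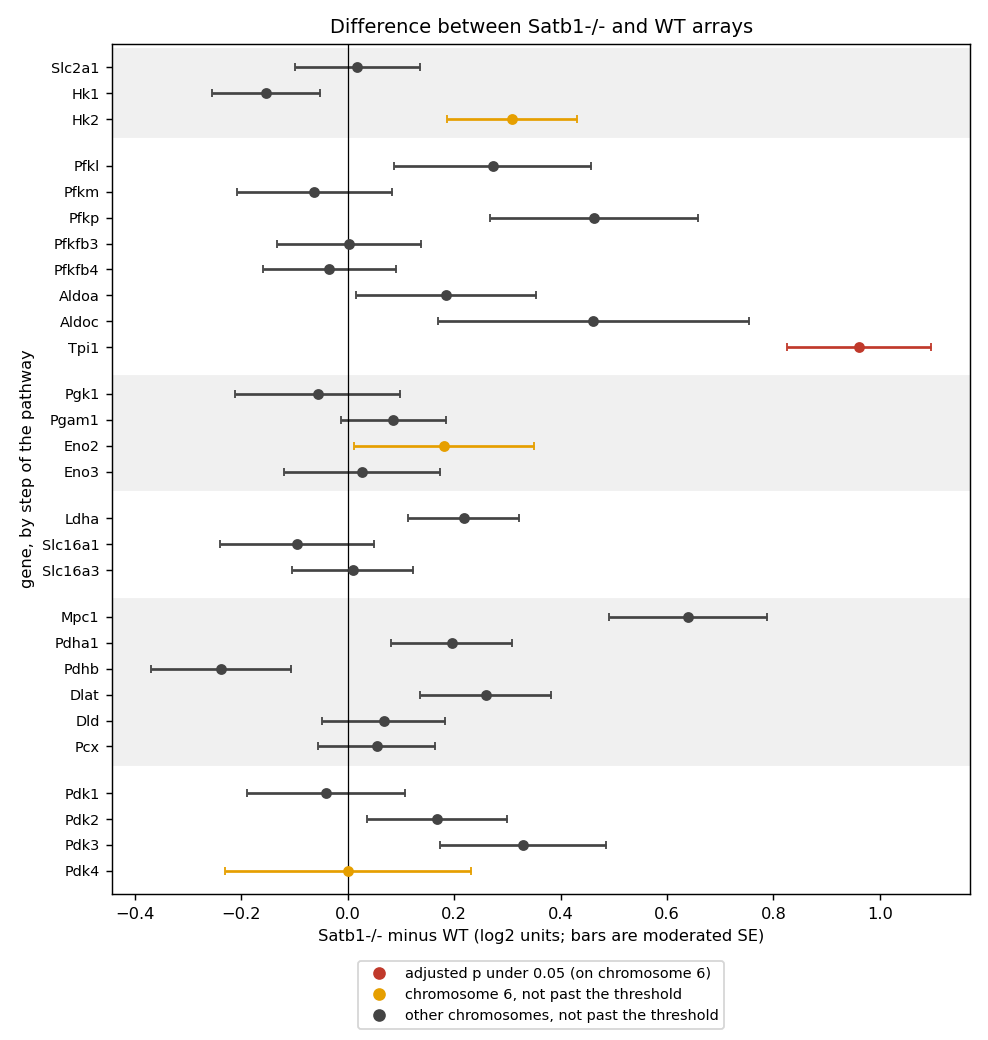
Difference Satb1-/- minus WT of each of the 28 genes (x axis, log2 units), with the moderated standard error from limma as bars, from 3 arrays a group. The red point is Tpi1, orange points are the other genes on chromosome 6, and grey points are genes on other chromosomes, none of which passed the threshold.

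The WT arrays differed more among themselves than the Satb1-/- arrays did. The median SD of the 28 genes was 0.11 in Satb1-/- arrays and 0.25 in WT arrays, against 0.11 and 0.16 over all genes, and against 0.09 and 0.19 over the 5383 genes of like signal. The WT SD was the larger for 24 of the 28 genes, a share of 85.7%, against 82.2% of the genes of like signal. The widest WT SDs were those of Aldoc (0.70), Pdk4 (0.53), Pfkp (0.46) and Pfkl (0.41). Leaving out WT array 2 lowered the median WT SD of the 28 genes to 0.16, and leaving out WT array 3 lowered it to 0.17.

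The order of the WT arrays differed between the steps of the pathway, a pattern looked for after the values were seen and given without a test. WT array 2 was the highest WT array for 20 of the 22 genes of uptake, glycolysis, lactate and the Pdk kinases, and for 0 of the 6 genes of pyruvate entry. WT array 3 was the highest for all 6 genes of pyruvate entry, namely Mpc1, Pdha1, Pdhb, Dlat, Dld and Pcx. Among genes of like signal, WT array 2 was the highest for 34.1% and WT array 3 for 59.8%. Against those genes, the order of the pyruvate entry genes is the common one and that of the glycolytic genes is not. Over all genes, WT arrays 1, 2 and 3 were the highest for 39.1%, 27.1% and 33.8%. Mpc1 and Pcx were dimmer than the genes of like signal. The exceptions among the 22 were Eno3 and Slc16a1, both highest in WT array 3.

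The Satb1-/- arrays showed a smaller difference of the same kind. Array 1-2 was the highest Satb1-/- array for 17 of the 22 genes and for 1 of the 6 pyruvate entry genes, against 23.6% of genes of like signal. The median level of the 8 upper glycolytic genes, each less its mean over the 6 arrays, was -0.01, 0.27 and 0.11 in Satb1-/- arrays 1-1, 1-2 and 2-1, and -0.23, 0.29 and -0.43 in WT arrays 1, 2 and 3. All Satb1-/- arrays thus lay between WT array 2 and the other WT arrays.

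**Figure D3:**
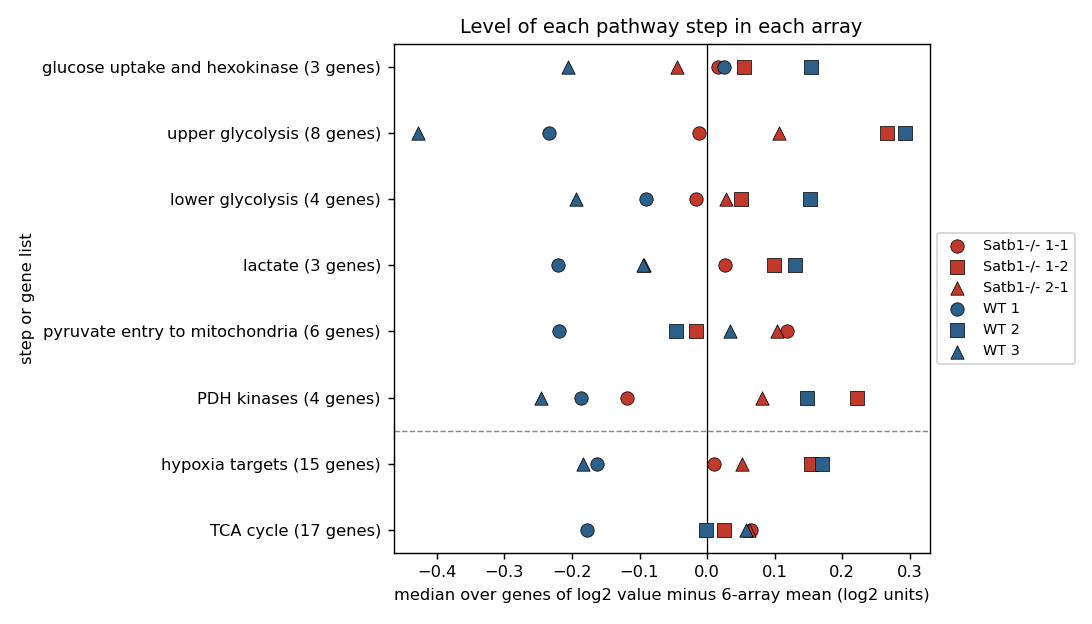
Median level of each pathway step in each array (x axis, log2 units), taken over the genes of the step after subtracting each gene's mean over the 6 arrays, with 15 hypoxia target genes and 17 tricarboxylic acid cycle genes below the dashed line. For upper glycolysis WT array 2 reads 0.29 and WT array 3 reads -0.43, while for pyruvate entry WT array 2 reads -0.05 and WT array 3 reads 0.03.

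A list of known hypoxia targets, which shares Pfkfb4 with the 28 genes, followed the same order of arrays. WT array 2 was the highest WT array for 12 of the 15 measured, against 34.1% of genes of like signal. For other lists described below it was the highest for 12 of 30 isozyme and transport, 3 of 8 pentose phosphate and 3 of 6 gluconeogenesis genes. The same held for 4 of 8 glycogen genes, 8 of 17 tricarboxylic acid cycle genes and 6 of 17 regulators. The median level of the 15 hypoxia targets was 0.01, 0.15 and 0.05 in Satb1-/- arrays 1-1, 1-2 and 2-1. In WT arrays 1, 2 and 3 it was -0.16, 0.17 and -0.18. The part of hypoxia in this order was not tested. Bnip3, a mitophagy gene, and P4ha1, a collagen prolyl hydroxylase gene, were picked as examples after their values were seen. Bnip3 has 2 probe sets, of which the brighter is given. Bnip3 read 9.02, 9.28 and 9.23 in Satb1-/- arrays, against 8.70, 9.40 and 8.14 in WT arrays. P4ha1 read 8.04, 8.39 and 8.23 in Satb1-/- arrays, against 7.55, 8.56 and 7.49 in WT arrays. Neither passed the threshold (limma adjusted p = 0.647 and 0.740).

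Other markers also differed between the WT arrays. The mean of the 15 feeder markers was 7.05, 6.75 and 6.96 in Satb1-/- arrays 1-1, 1-2 and 2-1, and 6.64, 6.85 and 6.49 in WT arrays 1, 2 and 3, with WT array 2 the highest WT array for 8 of the 15. Of these markers 0 passed the threshold and 14 had a positive difference, with a median of 0.19. No marker can read 0 on this scale. The mean of the 6 trophectoderm markers was 5.17, 5.33 and 5.09 in Satb1-/- arrays, and 5.77, 5.84 and 6.46 in WT arrays. Krt8 and Krt18, keratin genes, carried this gap and fell (differences -2.72 and -2.48, limma adjusted p = 0.0021 and 0.0051). Of the other 4, Cdx2 (-0.23), Gata3 (-0.16) and Elf5 (0.07) overlapped between the groups, and Eomes differed by 0.55 without overlap (limma adjusted p = 0.0680). The mean of the 7 stress and immediate early genes was 5.74, 5.62 and 5.69 in Satb1-/- arrays, and 5.88, 5.89 and 6.09 in WT arrays. WT array 3 was the highest WT array for 6 of these 7, and 0 of them passed the threshold. The part of these cells and of stress in the order of the arrays was not tested.

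The promoters of Pfkp and Aldoc, the glycolytic genes that with Pfkl and Pdk4 spread most over the WT arrays, are shown for the letters ACGTG and GCGTG, the core of the site bound by hypoxia-inducible factors. They were searched on both strands, and capitals mark each match; ACGTG lies also within the E-box CACGTG. The Pfkp window is chr13:6648722-6649021 on the minus strand and the Aldoc window chr11:78322823-78323122 on the plus strand (RefSeq, GRCm38.p6), from 250 bases before to 50 after the start. They hold 4 and 3 matches. These are the richer windows of that group: Pfkl and Pdk4 hold 1 match each, and Aldoa, with the same order of WT arrays, holds 0.
Pfkp: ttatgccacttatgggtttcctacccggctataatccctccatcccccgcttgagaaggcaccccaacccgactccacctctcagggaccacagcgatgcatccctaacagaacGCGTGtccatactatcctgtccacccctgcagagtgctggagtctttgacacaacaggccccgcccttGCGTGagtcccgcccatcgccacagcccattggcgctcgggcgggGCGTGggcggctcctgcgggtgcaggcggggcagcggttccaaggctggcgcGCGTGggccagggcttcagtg
Aldoc: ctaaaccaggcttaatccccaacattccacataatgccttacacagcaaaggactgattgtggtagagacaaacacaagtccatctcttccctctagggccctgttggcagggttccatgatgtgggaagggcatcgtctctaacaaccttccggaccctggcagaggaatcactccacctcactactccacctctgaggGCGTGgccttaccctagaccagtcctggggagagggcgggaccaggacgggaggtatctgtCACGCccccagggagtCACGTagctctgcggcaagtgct

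All 28 genes had a RefSeq promoter window, and 1 window was taken per gene. ACGTG was found in 14 of the 28 (50.0%), against 19.6% of all 27025 promoter windows and 29.2% of the 4417 windows of genes of like signal. GCGTG was found in 15 of the 28 (53.6%), against 32.5% of all and 56.9% of those of like signal. CACGTG was found in 5 of the 28 (17.9%), against 7.24% and 12.1%. The median GC content was 62.2% in the windows of the 28 genes, 52.7% in all windows and 62.0% in those of genes of like signal. Ldha held the most ACGTG matches (5), and Pgk1 held 2. A match is a string of letters and does not show binding.

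Tpi1 is 1 of 4 measured genes of the pathway on chromosome 6, with Hk2, Eno2 and Pdk4, and 0 lie on chromosome 8. Of the 30 genes above the median signal nearest to Tpi1, 15 on each side, all 30 had a positive difference, 20 rose and 0 fell, and the median difference was 0.91 (quartiles 0.47 and 1.13). The difference of Tpi1 exceeded that median by 0.05, and 12 of the 30 neighbours had a larger one. Without WT array 2 it exceeded the median by 0.30, and without WT array 3 the excess was -0.13.

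Eno2 lies next to Tpi1 with 2 measured genes between them, Lrrc23 and Spsb2, and yet differed by 0.18. Its mean signal was at percentile 48.2 of all genes, and that of Tpi1 at percentile 99.6. The 30 dimmer genes nearest to Eno2 had a median difference of 0.08, 8 of them with a larger one than Eno2, and 0 passed the threshold. The 30 brighter genes nearest to it had a median of 0.88, and 19 rose. Low signal did not go with a small difference throughout. In the window of 60 genes on each side of Tpi1, 3 of the 63 genes at or below the median signal rose: Prmt8 (signal percentile 46.3, difference 1.70), Parp11 (percentile 48.9, difference 0.88) and Klrg1 (percentile 20.9, difference 0.47). In Satb1-/- arrays alone, Prmt8 averaged 5.70 and Parp11 5.43, above Eno2 at 5.03, and Klrg1 averaged 3.93, below it. The part of signal level in the low value of Eno2 was not tested.

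The start regions of these neighbours are shown as the sites that lie in the raised part of chromosome 6. The Tpi1 window is chr6:124814109-124814408 and the Eno2 window chr6:124769624-124769923, both on the minus strand (RefSeq, GRCm38.p6). Neither holds ACGTG or GCGTG on either strand, so no letters are capital.
Tpi1: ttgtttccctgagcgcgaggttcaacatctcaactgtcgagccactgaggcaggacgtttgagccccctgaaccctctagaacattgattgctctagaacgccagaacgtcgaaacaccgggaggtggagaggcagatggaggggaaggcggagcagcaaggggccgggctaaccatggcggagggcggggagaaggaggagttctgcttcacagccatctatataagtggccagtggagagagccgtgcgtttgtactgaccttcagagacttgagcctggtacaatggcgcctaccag
Eno2: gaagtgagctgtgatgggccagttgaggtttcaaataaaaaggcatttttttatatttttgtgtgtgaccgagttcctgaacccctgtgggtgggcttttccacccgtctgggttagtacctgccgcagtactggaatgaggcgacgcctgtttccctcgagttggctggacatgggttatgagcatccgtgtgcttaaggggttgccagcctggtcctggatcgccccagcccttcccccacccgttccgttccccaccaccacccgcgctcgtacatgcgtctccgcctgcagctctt

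**Figure D4:**
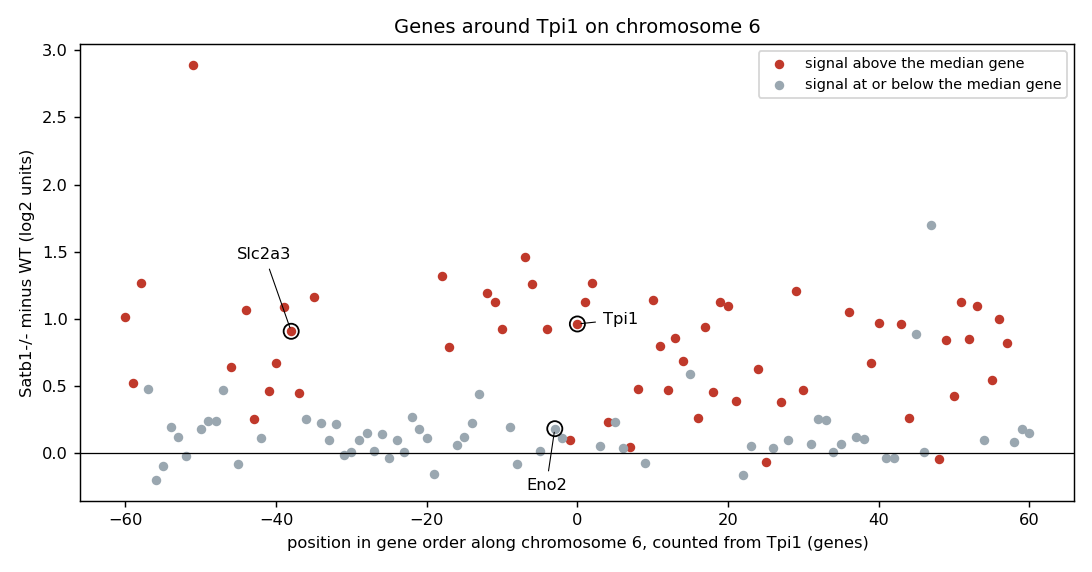
Difference Satb1-/- minus WT (y axis, log2 units) of Tpi1 and the 60 measured genes on each side of it, in gene order along chromosome 6 (x axis). Red points are genes with a signal above the median gene, of which 36 of 57 besides Tpi1 rose, and grey points are dimmer genes, of which 3 of 63 rose.

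The other genes on chromosome 6 lie outside that part. The 30 brighter neighbours of Hk2 had a median difference of 0.07, with 0 changed, and 4 of them had a larger difference than Hk2 (0.31). Pdk4 lies near the start of the chromosome, where 23 brighter genes were at hand with a median of 0.09, 1 lower and 0 higher. Without chromosome 6, 0 of 24 genes of the pathway rose or fell, and the median difference was 0.06. The 570 brighter genes of chromosome 8 had a median of -0.29.

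Related genes, taken from lists of the pathway's neighbours, gave 6 changed genes in all. Of 30 measured isozyme and transport genes, 2 rose and 0 fell (median difference 0.01), and both lie on chromosome 6. Slc2a3, a high-affinity glucose transporter gene, read 12.08, 12.20 and 12.11 in Satb1-/- arrays, against 11.21, 11.49 and 10.98 in WT arrays (difference 0.91, limma adjusted p = 0.00846). Its 30 brighter neighbours had a median of 0.98, and 18 of them had a larger difference. Tigar, whose product lowers fructose 2,6-bisphosphate, read 7.56, 7.49 and 7.48 in Satb1-/- arrays, against 6.54, 6.07 and 7.04 in WT arrays (difference 0.96, limma adjusted p = 0.0475). Its 30 brighter neighbours had a median of 0.68. The Slc2a3 call was lost without Satb1-/- array 1-2 or 2-1 (limma adjusted p = 0.0672 and 0.0581), with arrays 1-1 and 1-2 as 1 sample (0.0563) and with all probe sets tested (0.0828). The Tigar call was lost without any one array other than WT array 3 (limma adjusted p from 0.0600 to 0.194), after median centring (0.115), with the arrays merged in that way (0.201) and with all probe sets tested (0.229).

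Pygb, the brain-type glycogen phosphorylase gene on chromosome 2, read 8.17, 8.26 and 8.14 in Satb1-/- arrays, against 7.23, 7.33 and 7.36 in WT arrays (difference 0.88, SE 0.10, limma adjusted p = 0.00185). Every Satb1-/- value lay far above every WT value, and the 3 arrays of each group lay close together. It was the 1 changed gene of 8 in the glycogen list, whose median difference was 0.18. At an unadjusted p under 0.05 there were 3 of the 8, all higher (Pygb, Pgm2 and Pygl). Pgm2, on chromosome 5, differed by 0.81 without overlap (limma adjusted p = 0.0527). Pygl, the liver-type phosphorylase gene, differed by 0.46 with overlap (limma adjusted p = 0.453), and Gbe1, the branching enzyme gene, by -0.12. Pygb stayed past the threshold without any one of the 6 arrays.

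Among 17 regulators of the pathway, 1 rose and 1 fell (median difference -0.08). Txnip, whose product restrains glucose uptake and whose transcription follows glucose phosphates, read 9.08, 9.08 and 9.06 in Satb1-/- arrays, against 9.58, 10.03 and 9.62 in WT arrays (difference -0.67, limma adjusted p = 0.0358). Esrrb, an orphan nuclear receptor gene of ES cells, rose by 0.56 (limma adjusted p = 0.0435). Of the 15 hypoxia targets 1 rose, Higd1a, a mitochondrial protein gene, by 0.70 (limma adjusted p = 0.0264), and 0 fell, with a median of 0.08. The Txnip, Esrrb and Higd1a calls were each lost without any one Satb1-/- array, with limma adjusted p-values of up to 0.190, 0.210 and 0.176. Txnip was also lost without WT array 2 (limma adjusted p = 0.0618), and Esrrb and Higd1a without WT array 1 (limma adjusted p = 0.106 and 0.0661). Median centring also ended the calls of Txnip, Esrrb and Higd1a (limma adjusted p = 0.0810, 0.0878 and 0.0810), as did arrays 1-1 and 1-2 as 1 sample (0.162, 0.171 and 0.0999) and all probe sets (0.173, 0.165 and 0.144). Averaging its probe sets ended that of Higd1a (limma adjusted p = 0.0542).

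The lists for the pentose phosphate pathway (8 genes), gluconeogenesis (6) and the tricarboxylic acid cycle (17) held 0 changed genes by limma, with 1, 0 and 2 genes at an unadjusted p under 0.05. Their median differences were 0.11, 0.0019 and 0.09. Pkm, which encodes the pyruvate kinase that ends glycolysis and was picked after its values were seen because it completes the pathway, read 11.47, 11.48 and 11.43 in Satb1-/- arrays, against 11.46, 11.56 and 11.39 in WT arrays (difference -0.0074, limma adjusted p = 0.994). It too was highest in WT array 2 within WT. Pkm has 2 probe sets, and these values are of the brighter.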

How the data were processed

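The deposited values are on a log2 scale, and RMA, which corrects background, equalises the arrays and sums up the probes, is named for them per the submitters' processing notes, without version or settings. They cover 35557 probe sets, and array medians ran from 4.69 to 4.85. Arrays have no read depth, and their number limits the precision. Of the probe sets, 21789 had 1 gene symbol, 1621 several and 12147 none in the platform annotation. Per gene, the single-symbol probe set with the highest mean of the 6 arrays was kept.

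Satb1-/- and WT were compared with limma 3.58.1 (lmFit, then eBayes, under R 4.3.3), without covariates or a filter on dim probe sets, over all 19938 genes, with Benjamini-Hochberg adjustment over all of them and a threshold of 0.05; adjusted p-values are from this fit unless stated. The steps were checked on simulated data, with values drawn independently and with the same spread per gene in both groups. That check does not cover the wider WT spread or an order of arrays shared by many genes. Chromosomes and gene order came from RefSeq genes of GRCm38.p6, which serve for neighbourhood only, as no source used here names the array's build. All 28 measured genes were to be named, with list genes where they passed the threshold. The genes and lists were chosen with earlier results of these data known. Alternatives left out each array, rescaled or weighted arrays, dropped dim genes, averaged probe sets, tested all probe sets, merged arrays 1-1 and 1-2, or fitted a variance trend.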

Additional observations from a re-analysis of the deposited data

How the results depend on the processing

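Leaving out 1 array at a time, between 0 and 2 of the 28 genes were higher and 0 lower. It was 0 without Satb1-/- array 1-2 or 2-1, and 2 without WT array 2 (with Pfkp) or WT array 3 (with Mpc1). Array weights gave 2, adding Mpc1 (0.67, limma adjusted p = 0.0114), and testing all 35557 probe sets gave 0 (Tpi1 limma adjusted p = 0.0723). The difference of Tpi1 stayed between 0.82 and 1.11 in all alternatives, and its excess over its neighbours was 0.86 against dim ones, a setting chosen after seeing the data. The median WT SD ranged from 0.16 to 0.25 and the median difference from 0.05 to 0.17 when 1 array was left out. Over all genes, 74 to 356 were then higher and 19 to 124 lower, against 184 and 95; array weights gave 373 and 235, median centring 116 and 30, a second quantile normalization 236 and 148, all probe sets 68 and 15, and arrays 1-1 and 1-2 as 1 sample 90 and 27.

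Small differences changed sign, none of them past the threshold in any setting. Pdk4 read 0.0187 after centring. A second quantile normalization gave -0.0264 for Pfkfb3, 0.0272 for Pgk1, -0.0007 for Slc16a3 and 0.0037 for Pdk4. Array weights gave -0.0719 for Slc2a1, -0.13 for Pfkfb3, -0.0099 for Aldoa and -0.0789 for Slc16a3. Hk1 read 0.0483 as the mean of its probe sets and 0.25 on its other one, a setting added after seeing the data, and Slc16a3 -0.0196 with arrays 1-1 and 1-2 as 1 sample. With 1 array left out, ranges were -0.0189 to 0.12 for Dld, -0.10 to 0.20 for Eno3, -0.0029 to 0.12 for Pcx, -0.21 to 0.0596 for Pdk1, -0.18 to 0.31 for Pdk4 and -0.09 to 0.14 for Pfkfb3. They were -0.135 to 0.0425 for Pfkfb4, -0.15 to 0.10 for Pfkm, -0.23 to 0.10 for Pgk1, -0.27 to 0.0030 for Slc16a1, -0.0560 to 0.0776 for Slc16a3 and -0.0808 to 0.0991 for Slc2a1. The cause was not tested. No paired analysis was possible because the arrays of the groups share no replicate number.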
